A study of Bos taurus with 10 samples.

Results

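The Hippo-YAP genes described here are 10 of the 20112 genes in the table of bovine early blastocysts. They were chosen by symbol: *NF2*, *AMOT* and *AMOTL2* upstream of the cascade, the kinases *LATS1* and *LATS2*, the coactivators *YAP1* and *WWTR1*, and the DNA-binding partners *TEAD1*, *TEAD2* and *TEAD3*. The choice was made with earlier results of these data known. All 10 were found and all 10 passed the filter on low values (a mean of at least 1 normalized read count), so every one of them was tested.

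RNA-seq was performed on 10 single in vitro produced embryos labelled as early blastocysts at day 7.0 after fertilization, while the methods of the study name a slightly later day. The 5 WT embryos (nc1 to nc5) were injected at the zygote stage with mRNA of BE3, a cytosine base editor, and with no sgRNA. The 5 *SOX2* KO embryos (ko1 to ko5) received BE3 mRNA together with a mixture of sgRNAs designed to write premature stop codons into *SOX2*, so that editor mRNA is shared by all embryos. The zona pellucida had been removed, each library holds 1 whole embryo, the genotype of each embryo was read from its cDNA by the authors, and injected embryos can be mosaic. In whole embryos, fewer cells of a type and less RNA per cell cannot be told apart.

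Hippo signalling is a kinase relay that keeps the coactivators YAP (gene *YAP1*) and TAZ (gene *WWTR1*) out of the nucleus. Where cells touch and are not polarized, merlin (gene *NF2*) and angiomotins gather the kinases LATS1 and LATS2 at the membrane, LATS phosphorylates YAP and TAZ, and the phosphorylated proteins are held in the cytoplasm or degraded. In mouse embryos this happens in inner cells, where *Sox2* is switched on, while in polarized outer cells angiomotin is kept at the apical surface, YAP enters the nucleus with a TEAD factor and the trophectoderm genes *Cdx2* and *Gata3* are expressed. The question here is whether RNA of the pathway genes differed when *SOX2* was disrupted. RNA levels do not show phosphorylation or the place of a protein in the cell.

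The values are normalized read counts, that is reads per gene after division by a DESeq2 size factor, with no division by transcript length, so levels were compared between embryos and not between genes. WT embryos had 2223670 to 5134855 reads on genes, and *SOX2* KO embryos 2578284 to 4337342. The small-subunit ribosomal RNA gene *RN18S1* held 26.4% to 37.0% of a WT library and 32.5% to 45.0% of a *SOX2* KO library. *SOX2* RNA was 78.2 ± 14.1 for WT and 56.6 ± 23.2 for *SOX2* KO (SD, n = 5 each, log2 fold change -0.55, limma adjusted p = 0.167), and a count per gene does not show the edited bases. Over all tested genes, 1.16% were called lower. Summed epiblast markers were between 2437 and 2903 in WT and between 1083 and 1537 in *SOX2* KO, with 5 of 9 called lower. Primitive endoderm markers summed to 1194 to 1536 and 926 to 1073, with 3 of the 7 present called lower, and trophectoderm markers to 26722 to 39478 and 36705 to 49233, with none of 11 called, 1 higher and 1 lower on the adjusted p alone. Summed markers of cumulus cells were between 72.7 and 127 in WT and between 123 and 249 in *SOX2* KO, and most of this sum was *COL1A2*, with means of 57.9 and 146. The granulosa genes *FSHR* (23.2 in WT, 24.5 in *SOX2* KO) and *CYP19A1* (9.99 and 11.4) were low in both groups. All 7 cumulus markers present had a log2 fold change above 0, with a median of 0.47, and 1 was called higher. Among all tested genes, 62.9% were above 0 and 8.93% were called higher. The median level of this list was 3.82, and 7299 of 8722 genes with a mean under 10 were above 0. Over the 10 Hippo-YAP genes, nc2 stood apart: its mean log2 value was 6.92, and that of the other 9 embryos lay between 7.21 and 7.43. It was also the library with the fewest reads, so the values of *NF2*, *AMOT* and *TEAD3*, the 3 genes for which it was the lowest of all embryos, are given with and without it.

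Among the 10 genes, *NF2* was higher in *SOX2* KO embryos, and it alone passed the adjusted p of 0.05 in the limma test. None of the 10 was called at the thresholds of the study, an adjusted p of at most 0.05 together with a change of at least 2-fold up or a fall to 0.5 or less, and DESeq2 and edgeR also called 0. Of all 20056 tested genes, limma called 10.1%, of which the larger part was higher (8.93% of tested genes) and the smaller part lower (1.16%). On the adjusted p alone, 1 of the 10 passed against 13.6% of all tested genes and 14.8% of genes whose mean was 100 or more. The unadjusted p was at most 0.05 for 2 of the 10, *NF2* and *WWTR1*, against 32.4% of all tested genes. The log2 fold change was above 0 for 5 genes and below 0 for 5, while it was above 0 for 62.9% of all tested genes, with a median of 0.08 beside 0.25 over all tested genes and -0.11 over those with a mean of at least 100.

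**Figure D1:**
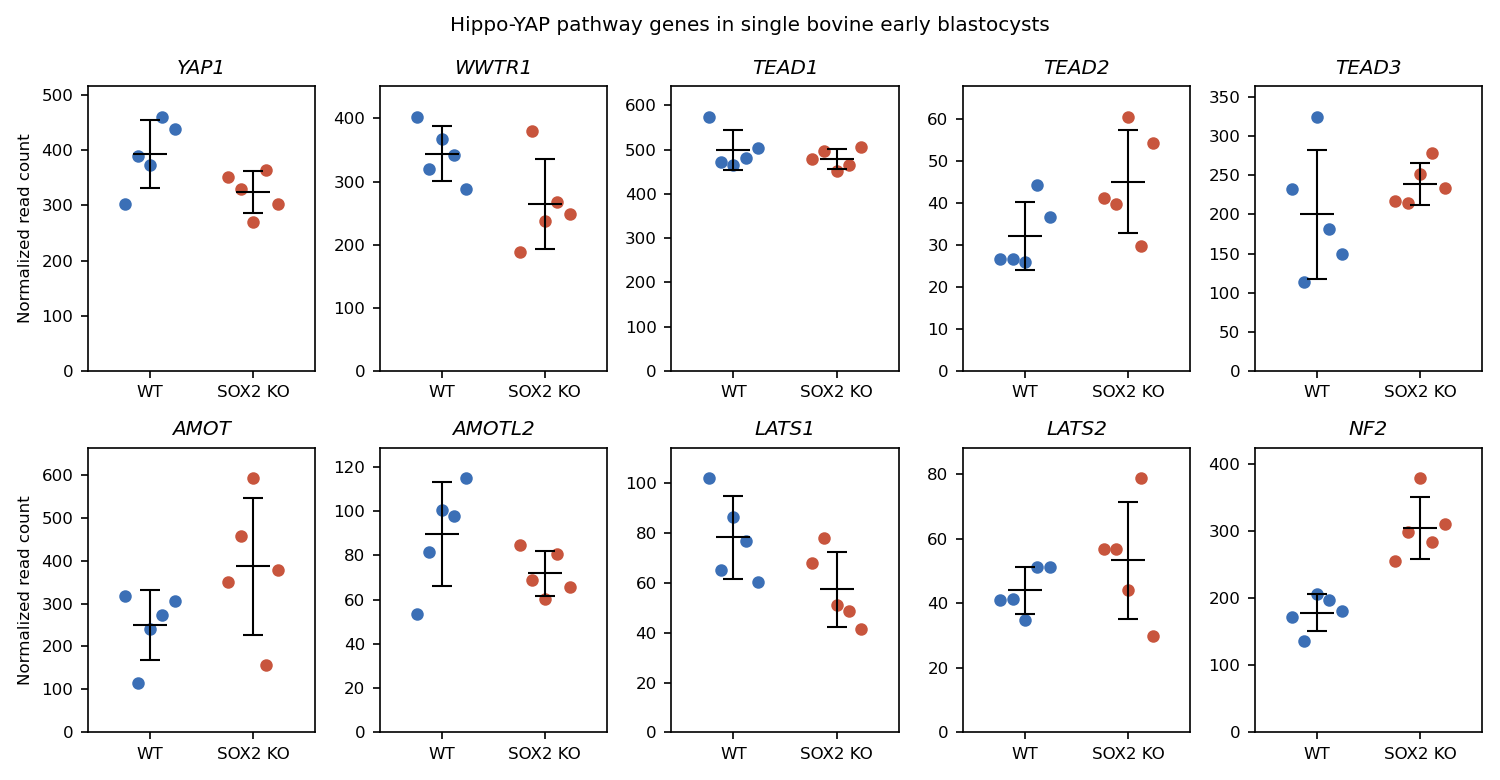
Normalized read count (linear axis from 0, a separate scale per gene) of the 10 Hippo-YAP genes in the WT (blue) and *SOX2* KO (red) embryos, with each point 1 embryo and the bars the mean and SD of 5 embryos. The groups are apart for *NF2*, where WT embryos lie between 136 and 206 and *SOX2* KO embryos between 255 and 379, and overlap for the other 9 genes.

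*NF2* encodes merlin, a membrane and cortex protein that activates the LATS kinases. Its normalized read counts were 172, 136, 206, 197 and 181 in WT and 255, 298, 379, 283 and 310.2 in *SOX2* KO embryos. Every *SOX2* KO embryo was above every WT embryo, and *NF2* was the 1 gene of the 10 whose groups did not overlap, beside 9.17% of all tested genes and 10.6% of genes whose mean was 100 or more. The mean rose from 179 ± 27.0 to 305 ± 46.2 (SD, n = 5 each), a fold change of 1.71 (95% interval 1.35 to 2.16), or 0.77 on the log2 scale (SE 0.16, limma adjusted p = 0.00551). This is less than the fold threshold of 2, although the interval reaches above it. The counts rest on 92 to 306 reads per WT embryo and 226 to 345 reads per *SOX2* KO embryo. With each embryo left out in turn, the log2 fold change stayed between 0.68 and 0.83 and the adjusted p stayed at or below 0.0212 (0.68 and 0.0167 without nc2). With the *RN18S1* share of each embryo as a covariate, the log2 fold change was 0.62 and the adjusted p 0.146, and in that fit 137 genes in all were called higher and 83 lower. As given above, the sum of the epiblast markers was lower in *SOX2* KO embryos without overlap. The *RN18S1* share and the sum of the trophectoderm markers reached higher in *SOX2* KO embryos, with ranges that overlap. Beyond this covariate, the part of these measures in the difference of *NF2* was not tested.

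The angiomotins *AMOT* and *AMOTL2* bind YAP, tether it outside the nucleus and help to activate LATS. *AMOT* had 317, 114, 241, 274 and 305 normalized read counts in WT and 349, 458, 592, 158 and 377 in *SOX2* KO embryos. Embryos ko1, ko2, ko3 and ko5 were above all WT embryos, while ko4 was lower than all WT embryos except nc2. The means were 250.4 ± 81.7 and 387 ± 159 (SD, n = 5 each) and the log2 fold change was 0.59 (SE 0.29, limma adjusted p = 0.169), with a 95% interval of the fold from 0.985 to 2.29. Without ko4 it was 0.88 with an adjusted p of 0.0168, and without nc2 it was 0.33 with an adjusted p of 0.429, so 1 embryo decides on which side of the threshold *AMOT* falls. With the *RN18S1* share as a covariate it was 0.22 with an adjusted p of 0.823. *AMOTL2* lay between 53.4 and 115 in WT embryos and between 60.5 and 84.6 in *SOX2* KO embryos, with means of 89.7 ± 23.5 and 72.0 ± 10.2 (log2 fold change -0.28, 95% interval -0.73 to 0.17, adjusted p = 0.383). The log2 ratio of *AMOT* to *AMOTL2* was 1.44 ± 0.75 in WT and 2.31 ± 0.87 in *SOX2* KO, and 2 *SOX2* KO embryos lay above all WT embryos.

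The embryos nc2 and ko4, in which *AMOT* was lowest within their groups, were also the embryos with the least *XIST* RNA, the noncoding RNA that coats the inactive X chromosome of female cells. *XIST* had 1819, 11.9, 2326, 429 and 2144 normalized read counts in WT and 2819, 2251, 1804, 33.7 and 1267 in *SOX2* KO embryos. It was thus low in nc2 and ko4, intermediate in nc4 and at 1267 or more in the other 7. *WWC3*, a scaffold of the cascade related to KIBRA and, like *AMOT*, X-linked in humans, followed the same order at its lower end, with 246 in nc2 and 357 in ko4 whereas the rest of the WT embryos had 470.1 to 648 and the rest of the *SOX2* KO embryos 591 to 778. *NF2* had its lowest WT value in nc2 but was 283 in ko4, above all WT embryos. With log2 *XIST* entered as a limma covariate, the log2 fold change of *AMOT* was 0.45 with a smaller standard error (0.17 in place of 0.29) and an adjusted p of 0.0789, and that of *NF2* was 0.74 with an adjusted p of 0.00329. *XIST* and *WWC3* were set beside *AMOT* after the values were seen.

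**Figure D2:**
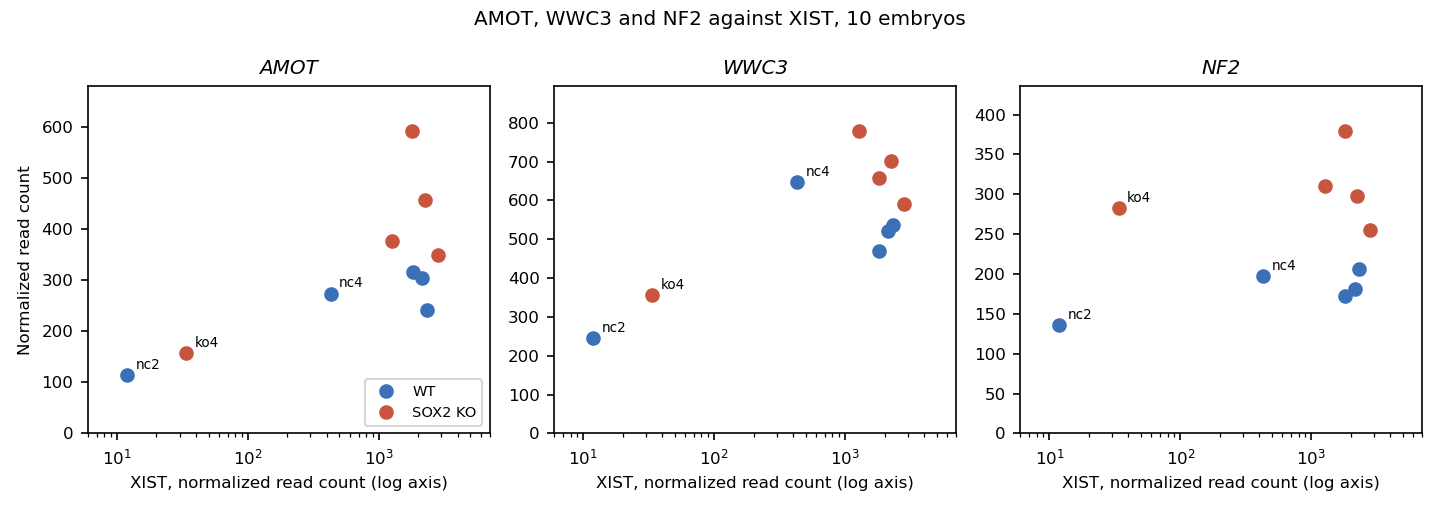
Normalized read counts of *AMOT*, *WWC3* and *NF2* (linear axis) against that of *XIST* (log axis) in the 10 embryos, WT in blue and *SOX2* KO in red, with names for nc2, nc4 and ko4, the 3 embryos with the least *XIST*. The lowest *AMOT* and *WWC3* values of each group are those of nc2 and ko4, whereas *NF2* in ko4 lies with the other *SOX2* KO embryos.

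The kinases *LATS1* and *LATS2*, which phosphorylate YAP and TAZ, had log2 fold changes of opposite sign. *LATS1* was 102, 65.3, 86.5, 76.9 and 60.2 in WT and 67.9, 77.9, 51.2, 48.5 and 41.5 in *SOX2* KO embryos. Embryos ko3, ko4 and ko5 were below all WT embryos, ko1 and ko2 lay inside the WT range, and the log2 fold change, -0.45, did not pass the test (SE 0.23, 95% interval -0.92 to 0.02, limma adjusted p = 0.172). *LATS2* was 41.2, 41.5, 34.8, 51.3 and 51.4 in WT and 56.8, 56.8, 44.2, 78.9 and 30.0 in *SOX2* KO embryos. Its highest and its lowest value of all were both in *SOX2* KO embryos, ko4 and ko5, and the log2 fold change was 0.22 (95% interval -0.32 to 0.75, adjusted p = 0.585), or 0.70 with an adjusted p of 0.248 when the *RN18S1* share was a covariate. The log2 ratio of *LATS2* to *LATS1* was -0.82 ± 0.48 in WT and -0.14 ± 0.48 in *SOX2* KO (SD, n = 5 each), with 2 *SOX2* KO embryos above all WT embryos, and this ratio was not tested.

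*YAP1* and *WWTR1* encode YAP and TAZ, the coactivators at the end of the relay. *YAP1* was 303, 390.0, 373, 461 and 439 in WT and 351, 330.1, 269.8, 365 and 302 in *SOX2* KO embryos. The lowest WT embryo, nc1, lay among the *SOX2* KO embryos, and 2 *SOX2* KO embryos were below all WT embryos. The means were 393 ± 61.7 and 323 ± 38.2 (SD, n = 5 each), with a log2 fold change of -0.27 (SE 0.15, 95% interval -0.60 to 0.05, limma adjusted p = 0.225). *WWTR1* was 403, 320.3, 368, 342 and 288 in WT and 188, 380.3, 237, 267 and 248 in *SOX2* KO embryos. All *SOX2* KO embryos but ko2 were below all WT embryos, and ko2 was above all WT embryos but nc1. The log2 fold change was -0.41 (95% interval -0.78 to -0.04), which is 0.753-fold, and the unadjusted p of 0.0298 in limma became 0.114 after adjustment. Without ko2 it was -0.55 on the log2 scale with an adjusted p of 0.0350, and with sample quality weights, which give outlying embryos less weight, these were -0.45 and 0.0499. The log2 ratio of *WWTR1* to *YAP1* was -0.19 ± 0.40 in WT and -0.32 ± 0.40 in *SOX2* KO, a difference smaller than the spread between embryos.

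TEAD factors bind DNA and carry YAP and TAZ to their target genes. *TEAD1* was the steadiest of the 10 genes, with 575, 472, 465, 481 and 504 in WT and 478, 498, 452, 465 and 506 in *SOX2* KO embryos. Apart from nc1 at the top, all embryos lay within 452 to 506, and the coefficients of variation were 8.93% and 4.66%. The log2 fold change was -0.05 (95% interval -0.34 to 0.23, limma adjusted p = 0.813), an interval that leaves out changes as large as that of *NF2*, and its sign turned with 2 other scalings (0.05 after scaling by the median log ratio and 0.02 after quantile normalization). *TEAD3* was 232, 113, 325, 181 and 149.9 in WT and 217, 214, 251, 279 and 234 in *SOX2* KO embryos. The WT embryos covered a 2.88-fold range that held all 5 *SOX2* KO embryos, whose own range was 1.31-fold (log2 fold change 0.34, 95% interval -0.11 to 0.80, adjusted p = 0.281). Without nc2 the log2 fold change of *TEAD3* was 0.16, and with the *RN18S1* share as a covariate it was 0.02. *TEAD2* lay between 25.9 and 44.3 in WT embryos and between 29.6 and 60.5 in *SOX2* KO embryos, with means of 32.0 ± 8.16 and 45.0 ± 12.3 (log2 fold change 0.47, 95% interval -0.09 to 1.03, adjusted p = 0.234). *TEAD4*, the TEAD factor needed for trophectoderm in mice, is no member of the set and was added after its values were seen. Its means were 302 ± 58.6 and 364 ± 51.1 (log2 fold change 0.28, adjusted p = 0.247).

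**Figure D3:**
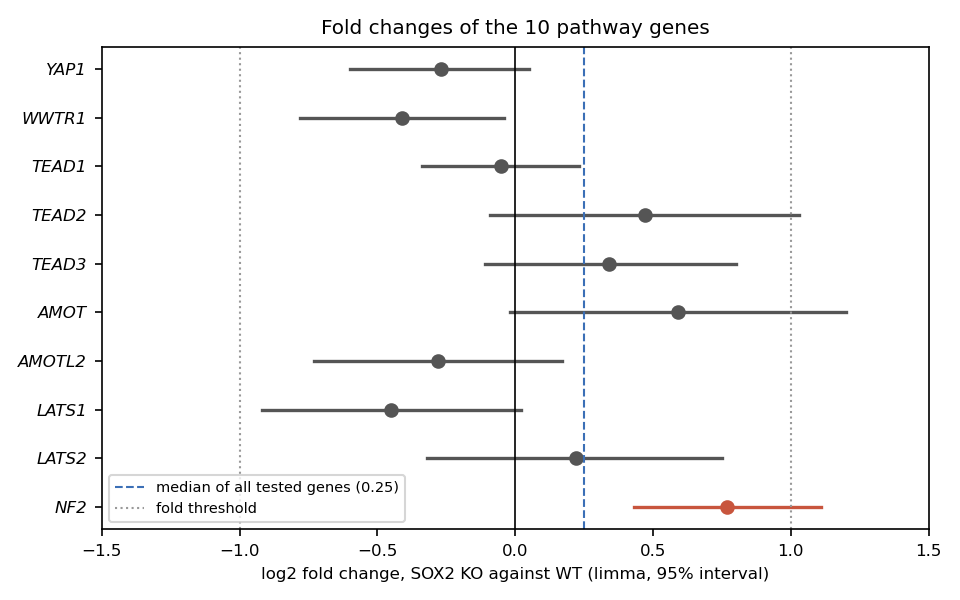
Log2 fold change (*SOX2* KO against WT, limma) of the 10 genes with 95% intervals, 5 embryos per group, a dashed line at the median of all tested genes (0.25) and dotted lines at the fold thresholds. The interval of *NF2* (red) runs from 0.43 to 1.11 and that of *WWTR1* from -0.78 to -0.04, and the other 8 intervals include 0.

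The spread between embryos differed from gene to gene. Genes with a mean of 50 or more (6982 in all) had a median SD of 0.29 on the log2 scale in both groups. *AMOT* was more variable than this in WT (0.60) and in *SOX2* KO (0.71), and *TEAD3* in WT (0.58) but not in *SOX2* KO (0.16). *TEAD1* (0.12 and 0.07) and *YAP1* (0.24 and 0.17) were below the median of 0.29 in both groups. *LATS2* is not in this set, as its mean over all embryos is under 50 (44.0 in WT, 53.3 in *SOX2* KO). Its SD was 0.23 in WT and 0.51 in *SOX2* KO. These values rest on 26 to 96 reads per embryo, with a counting error of 19.6% at the fewest reads. Embryos nc1 and ko3 each had the highest value of all 10 embryos for 3 genes, and nc2, as above, had the lowest for 3.

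After each group was centred on its mean, the log2 values of some genes went up and down together over the 10 embryos. These correlations describe 10 libraries that share depth and scaling, and no test is attached to them. The closest pair was *YAP1* and *AMOTL2*, which is itself known as a YAP target (r = 0.87), followed by *AMOT* and *NF2* (0.66), *TEAD2* and *AMOT* (0.65), *YAP1* and *LATS2* (0.61) and *TEAD3* and *NF2* (0.60). The most opposed pair was *TEAD1* and *AMOTL2* (-0.60). Over the 6981 other genes with a mean of at least 50, *YAP1* was most like *MAP2K1* (r = 0.953), *NFYA* (0.934) and *USP1* (0.911), and 4 genes reached 0.9. *WWTR1* was most like *RNASEH2A* (0.916), *ARHGDIA* (0.911) and *SH3GL1* (0.899). *LATS2*, compared with 6982 genes, was most like *ZNF330* (0.960), *GPN1* (0.959) and *TAF13* (0.954), and 25 genes reached 0.9. *AMOT* was most like *PQBP1* (0.975), *CITED1* (0.960) and *MSN* (0.956), all of them X-linked in humans, and 35 genes reached 0.9.

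The other pathway genes came from 5 lists written from general knowledge, but with earlier results of these data known. Of these genes, 108 were tested, and limma called 7 higher and 1 lower. The median log2 fold change of the 108 was 0.15. Groups did not overlap for 6 higher and 4 lower genes of the 108, beside 1286 and 554 of all 20056 tested genes (9.17% together). By level, the genes called higher were 1 of 48 with a mean of 100 or more, where 2.29% of all tested genes were called higher, 4 of 46 with a mean from 10 to 100, where 6.76% were, and 2 of 14 with a mean under 10, where 14.1% were.

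Among 22 genes of the kinase cascade (the MST kinases, their adaptors and the kinases that act beside them), limma, DESeq2 and edgeR called 0. Limma called 10.1% of all tested genes. An unadjusted limma p of at most 0.05 was found for 7 of the 22, beside 32.4% of all tested genes. On the adjusted p alone, 3 rose and 0 fell, against 10.4% of all tested genes that rose and 641 of 20056 that fell. The counts of 7 and 3 lie near the background of all genes. *WWC1* (KIBRA), a scaffold that works with merlin, rose from 347 ± 47.6 to 497 ± 84.2 (log2 fold change 0.51, limma adjusted p = 0.0361). *MAP4K4*, a kinase that can act on LATS (0.79, adjusted p = 0.0470), and *RASSF1*, a scaffold of the MST kinases (0.72, adjusted p = 0.0484), were named after their values were seen, and each of these 3 failed the adjusted p in 6 or 7 of the 10 fits that left out an embryo. *WWC3* had means of 484 and 617 (0.37, adjusted p = 0.272).

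Among 19 genes that restrain the cascade, limma, DESeq2 and edgeR called 0, 2 had an unadjusted p of at most 0.05, and the median log2 fold change was -0.03. *ITCH*, a ubiquitin ligase that targets LATS1, fell on the adjusted p alone. It was 334, 368, 286, 315 and 395 in WT and 284, 235, 188, 237 and 187 in *SOX2* KO embryos, so that all *SOX2* KO embryos were below all WT embryos, by a narrow margin at the edge (log2 fold change -0.59, limma adjusted p = 0.0207). *ITCH* was the 1 gene of the 19 whose groups did not overlap, beside 9.17% of all tested genes. It was named after its values were seen and did not pass without nc5, ko3 or ko5 or with the *RN18S1* share as a covariate. *PPP2CA* (-0.36, adjusted p = 0.187) and *PPP2R1A* (-0.05, adjusted p = 0.832), parts of the phosphatase that removes phosphate from MST, did not pass.

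Of the 17 tested partners of YAP and TEAD, *SFN* was called, 1 gene beside 10.1% of all tested genes. *SFN* encodes stratifin, of the family of adaptors that bind phosphorylated YAP in the cytoplasm, and it is also an epithelial gene. It was 627, 274, 265, 583 and 407 in WT and 1030, 1001, 781, 1056 and 1472 in *SOX2* KO embryos. Every *SOX2* KO embryo was above every WT embryo, the mean rose from 431 ± 169 to 1068 ± 251 (SD, n = 5 each), and the log2 fold change was 1.37 (SE 0.23, limma adjusted p = 8.41e-04). *SFN* was called in all 13 alternatives and with each of the 10 embryos left out. Its relatives *YWHAE* (-0.12, adjusted p = 0.654) and *YWHAQ* (-0.13, adjusted p = 0.639) had log2 fold changes near 0. The median over the 17 genes was 0.02. The summed trophectoderm markers also reached higher in *SOX2* KO embryos (26722 to 39478 in WT, 36705 to 49233 in *SOX2* KO). The ranges overlap and none of the 11 markers was called. The part of these markers in the rise of *SFN* was not tested.

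Of the 32 tested genes of polarity and cell junctions, 4 were called higher and 1 lower, beside 8.93% and 1.16% of all tested genes. The count called higher lies near that share. The lower one was *PRKCI*, the atypical protein kinase C iota, which works in the apical PAR complex. It was 285, 291, 246, 288 and 250.3 in WT and 136, 162, 137, 126 and 111 in *SOX2* KO embryos. The groups did not overlap and were both narrow, and the mean fell from 272 ± 22.0 to 134 ± 18.9 (log2 fold change -1.02, SE 0.16, limma adjusted p = 4.30e-04). The adjusted p passed in all 13 alternatives and all 10 fits that left out an embryo, while the fold change lay close to the threshold, so that the call itself stood in 8 of 13 and 6 of 10. Its paralog *PRKCZ*, named after its values were seen, did not pass (286 ± 61.4 and 321 ± 37.9, log2 fold change 0.19, adjusted p = 0.457). The log2 ratio of *PRKCZ* to *PRKCI* was 0.05 ± 0.25 in WT, from -0.33 to 0.35, and 1.26 ± 0.28 in *SOX2* KO, from 0.95 to 1.56. *LIN7C*, a partner of the Crumbs complex also named after its values were seen, was 127, 178, 127, 189.6 and 159 in WT and 80.2, 91.1, 81.4, 105 and 55.3 in *SOX2* KO embryos, again without overlap (log2 fold change -0.92, adjusted p = 0.00641, or -0.57 and 0.225 with the *RN18S1* share as a covariate). *EZR* (ezrin, 7930 ± 1071 and 9914 ± 849, adjusted p = 0.270) and *MSN* (moesin, 2006 ± 519 and 1914 ± 508, adjusted p = 0.864), relatives of merlin that link membrane to actin, did not pass, and *MSN* was lowest in nc2 and ko4.

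The 4 polarity genes called higher had few reads. *CRB2*, a Crumbs protein of the apical membrane, had 2, 1, 1, 0 and 4 reads in WT and 21, 3, 8, 7 and 16 in *SOX2* KO embryos. The others were large cadherins of the FAT and Dachsous group, which are receptor and ligand upstream of Hippo in flies. *DCHS1* had 4, 0, 1, 0 and 3 reads in WT and 41, 14, 25, 14 and 12 in *SOX2* KO. Summed over the embryos of a group, *FAT3* had 7 reads in WT and 95 in *SOX2* KO, and *FAT2* had 29 and 111. Per size factor, the summed reads were 17.2-fold higher for *DCHS1* (95% exact interval 8.42 to 40.9), 17.6-fold for *FAT3* (8.23 to 45.0), 8.92-fold for *CRB2* (4.23 to 21.7) and 4.97-fold for *FAT2* (3.28 to 7.76), and these intervals cover counting error only. In limma the log2 fold changes on the scale with a pseudocount of 1 were 3.56 for *DCHS1* (adjusted p = 5.02e-04), 3.20 for *FAT3* (adjusted p = 0.00228), 2.39 for *CRB2* (adjusted p = 0.0113) and 2.21 for *FAT2* (adjusted p = 0.0167). In WT, *CRB2* and *DCHS1* had at most 4 reads per embryo and *FAT3* 7 in total, so a fall could hardly have been called. The calls of *CRB2*, *DCHS1* and *FAT3* were thus nearly bound to be rises and add little to the count. *DCHS1* alone of the 4 genes called higher kept its call with the *RN18S1* share as a covariate, and *FAT2* lost it without ko1 or without ko5. *FAT1*, the FAT gene with many reads, did not pass (0.43 on the log2 scale, adjusted p = 0.130) and was named after its values were seen. Without the 6 FAT and Dachsous genes, 1 of the 26 remaining polarity genes was called higher and 1 lower. Over all tested genes, the shares were 8.93% and 1.16%.

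**Figure D4:**
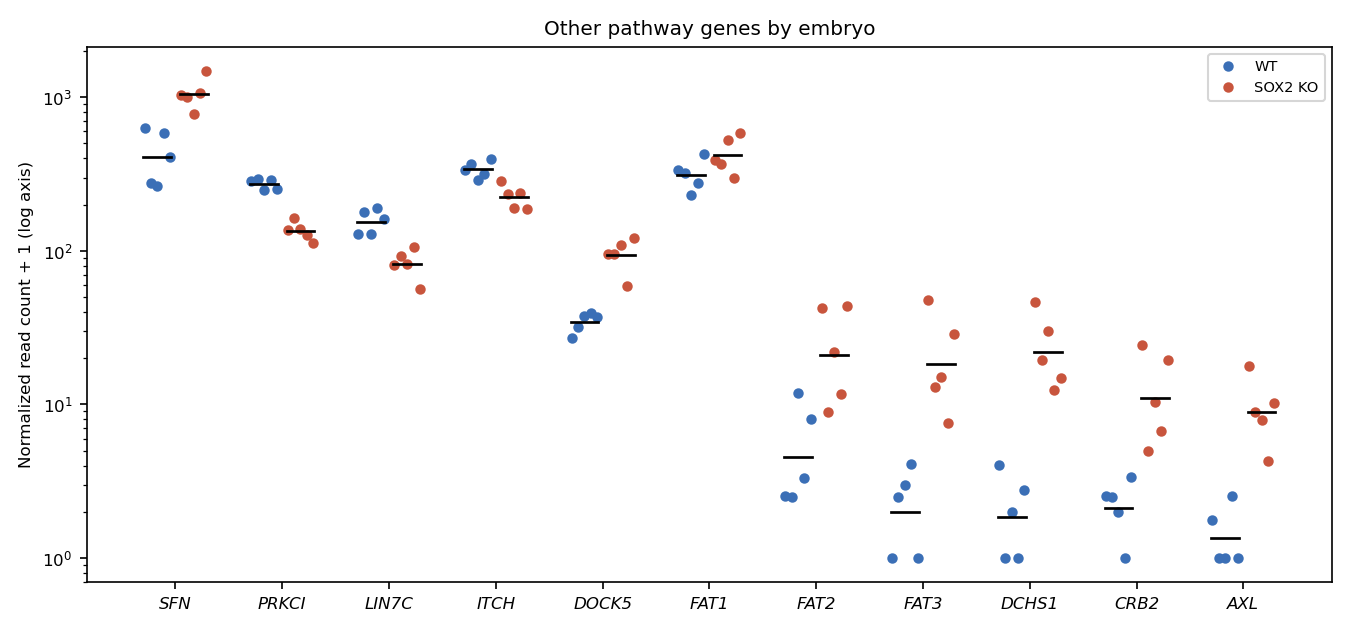
Normalized read count plus 1 (log axis) of 11 other pathway genes in the WT (blue) and *SOX2* KO (red) embryos, with each point 1 embryo and the bar the mean of the log values of 5 embryos. *SFN* and *DOCK5* lie higher and *PRKCI*, *LIN7C* and *ITCH* lower in all *SOX2* KO embryos, and the genes from *FAT2* to *AXL* have few reads in WT. Among the 108 other pathway genes tested, groups did not overlap for 6 higher and 4 lower, beside 9.17% of all tested genes.

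Genes known as targets of YAP and TEAD had a median log2 fold change of 0.60, with 19 of the 22 tested genes above 0, beside 0.25 and 62.9% over all tested genes. The median of all genes depends on level. It was 0.93 for a mean under 10, 0.04 from 10 to 100 and -0.11 at 100 or more. The target list mixes levels (median level 43.0) and was not matched to them. Of the 22 targets, 2 were called higher and 0 lower, and 1 more fell on the adjusted p alone. These counts lie near the background of all genes (8.93% called higher, 13.6% past the adjusted p). *DOCK5*, an activator of Rac, was 25.9, 31.1, 36.8, 38.1 and 36.0 in WT and 94.6, 93.8, 108, 58.3 and 119.9 in *SOX2* KO embryos, without overlap (log2 fold change 1.45, SE 0.23, limma adjusted p = 6.48e-04), and it was called in all 13 alternatives. *AXL*, a receptor tyrosine kinase, had 1, 0, 0, 2 and 0 reads in WT and 15, 6, 6, 4 and 8 in *SOX2* KO embryos, a ratio of 16.9 per size factor (95% exact interval 5.36 to 85.4, limma adjusted p = 0.00404). Its WT mean of 0.463 is below the filter, which *AXL* passed only through the *SOX2* KO embryos, so its call was bound to be a rise and adds nothing to the count. The best known targets, both named after their values were seen, did not move together. *CYR61* (CCN1) was 28.2, 25.2, 35.8, 44.3 and 132 in WT and 132, 149, 83.7, 56.7 and 50.7 in *SOX2* KO (log2 fold change 0.98, adjusted p = 0.0804), and *CTGF* (CCN2) was 55.7, 91.9, 67.6, 58.3 and 107 in WT and 119, 39.6, 32.6, 59.1 and 38.1 in *SOX2* KO (log2 fold change -0.52, adjusted p = 0.238). The groups overlapped for both. *IGFBP3*, which binds insulin-like growth factors, was the 1 target that fell (-0.92, adjusted p = 0.0378, named after its values were seen). *MYOF* (myoferlin) had means of 532 and 542 (0.02, adjusted p = 0.945). The members *AMOTL2* and *LATS2* also stand in this list, with the values given above.

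**Figure D5:**
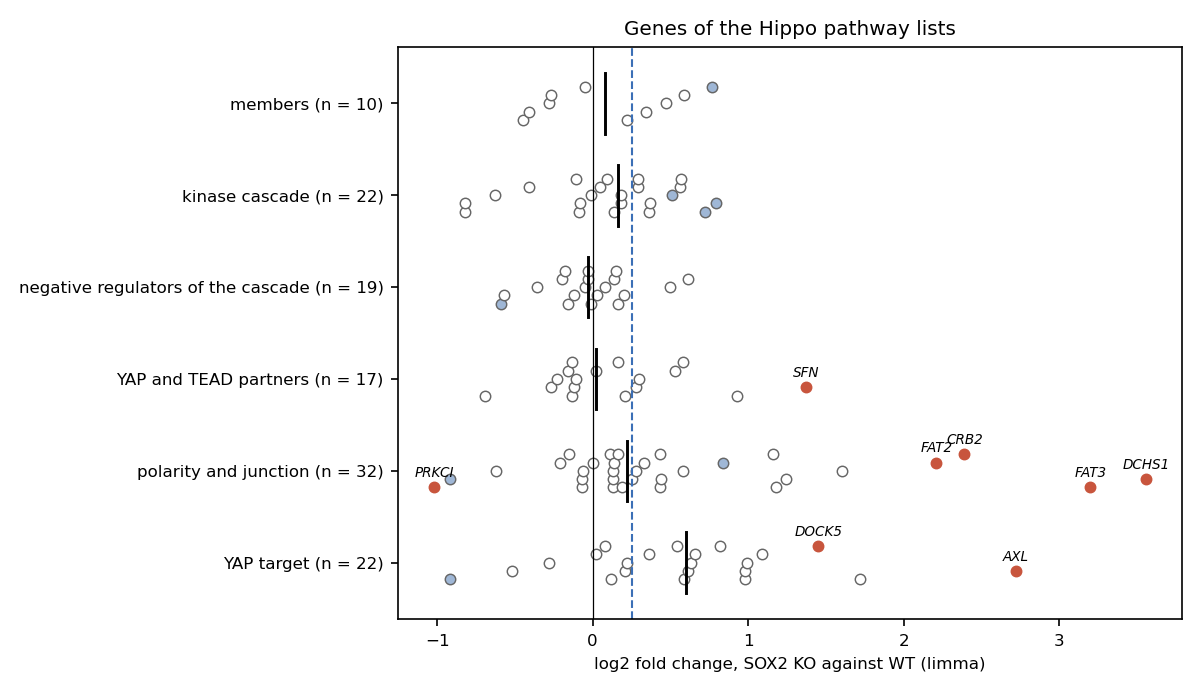
Log2 fold change (*SOX2* KO against WT, limma) of each tested gene in the member set and in 5 lists of other pathway genes, each point 1 gene, filled red where called, pale blue where only the adjusted p passed, with a black bar at the median of the list and a dashed line at the median of all tested genes (0.25). The medians run from -0.03 for the negative regulators to 0.60 for the YAP targets.

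Of the lineage genes listed beside this pathway, *KRT18*, a keratin of the trophectoderm, rose from 9100 ± 1394 to 15124 ± 2419 without overlap (log2 fold change 0.73, limma adjusted p = 0.0394), but did not pass in 7 of the 10 fits that left out an embryo. *TFAP2C*, a transcription factor of the trophectoderm, fell from 791 ± 79.5 to 565 ± 95.3 (-0.49, adjusted p = 0.0352) and did not pass in 6 of the 10. *CDX2* had means of 35.8 and 54.5 (0.61, adjusted p = 0.127), *GATA3* 695 and 759 (0.13, adjusted p = 0.617), and the log2 fold change of *KRT8* was 0.36 (adjusted p = 0.352), none of which passed. In the wider list of trophectoderm markers, 10 of 11 tested genes had a log2 fold change above 0, with a median of 0.50. *TFAP2C* was the 1 below 0, and none of the 11 was called. Beside this, 62.9% of all tested genes lay above 0, with a median of 0.25. Where the mean reached 100, 1727 of 4548 lay above 0, with a median of -0.11. The marker list had a median level of 678 but mixes levels and was not matched to them.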

How the data were processed

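RNA of 10 single embryos, 5 WT and 5 *SOX2* KO, was made into Smart-seq2 libraries (polyadenylated RNA, PCR without molecular identifiers). According to the submitters' processing notes, reads were handled with Trimmomatic, HISAT2 (ARS-UCD1.2), featureCounts and DESeq2. The annotation release, the strand setting and the rule for multi-mapping reads are not given in the sources used here, so reads of paralogs, overlapping and antisense genes may be shared. The table deposited by the authors holds a normalized signal, namely counts per gene after division by a DESeq2 size factor for each embryo. No gene has fewer than 11 reads in all. In each embryo the values rise in whole steps, which holds for 201120 of 201120 values (100%) within 0.001 reads, and reads were recovered from these steps (for nc3 the step lies within 1% of 1).

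WT columns match the replicate numbers of the labels. Those of *SOX2* KO embryos were used as members of the group without a replicate number, and 0 columns were without a group. Nothing states that embryos came from separate fertilizations, so p-values measure the spread between these embryos.

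The main test was limma 3.58.1 (lmFit, eBayes with a trend, R 4.3.3) on log2(normalized read count + 1) for the 20056 genes whose mean was 1 or more, with Benjamini-Hochberg adjustment over all of them, at the thresholds of the study (adjusted p of 0.05, fold of 2 or 0.5). On this scale, the change of genes with few reads is understated. On the recovered reads, DESeq2 1.42.0 called 1837 genes higher and 239 lower, and the quasi-likelihood test of edgeR 4.0.16 called 1686 and 299. Other alternatives were pseudocounts of 0.1 and 5, 4 other scalings, sample quality weights, 2 filters, the *RN18S1* share as a covariate and leaving out each embryo. Log2 *XIST* as a covariate was added after the values were seen. The fits were run on simulated data with the same spread for every gene and large changes set only in genes that were not low. That run does not bear on smaller changes or on genes with few reads. Summaries were made in Python 3.11.15 with pandas 2.3.3 and numpy 2.4.6.

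The members and the gene lists were chosen with earlier results of these data known. Named genes are the 10 members, *SOX2*, from each list the called genes and the 2 with the highest mean, the lineage genes, and the 3 genes most like *YAP1*, *WWTR1*, *LATS2* and *AMOT*. Exceptions are stated where they occur. *VGLL1*, *VGLL2* and the symbols *PALS1*, *CCN1* and *CCN2* were not matched in the table, and the last 3 were read as *MPP5*, *CYR61* and *CTGF*. Sequences, transcript lengths and coordinates were not used here, since the gene table at hand describes another assembly. At these depths, 3 reads or fewer per embryo were taken as the floor of detection, and intervals and floors cover counting error only.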

Additional observations from a re-analysis of the deposited data

How the results depend on the processing

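None of the 10 members was called in any of 13 alternatives or 10 fits that left out an embryo. The number with an adjusted p of at most 0.05 was 1. It was 2 with sample quality weights, where *WWTR1* joined *NF2*, and 0 with the *RN18S1* share as a covariate, and it ranged from 1 to 2 with an embryo left out (2 without ko2 and 2 without ko4). Under the alternatives, 126 fold changes of members kept their direction and side of the threshold, *WWTR1* and *NF2* crossed it as said, and that of *TEAD1* turned to 0.05 after scaling by the median log ratio and to 0.02 after quantile normalization. The *RN18S1* share as a covariate moved several sizes by over 1.5 times without a change of call, to 0.22 for *AMOT*, 0.02 for *TEAD3*, 0.29 for *TEAD2*, 0.70 for *LATS2*, -0.12 for *YAP1* and -0.13 for *AMOTL2*. The polarity list had 5 calls, 1 with the *RN18S1* share as a covariate (*DCHS1*) and 3 to 6 with an embryo left out (3 without ko5). The other alternatives gave 4 to 6 polarity calls, such as 4 after quantile normalization and 6 after scaling to equal totals. The YAP target list had 2 calls, 1 with a mean of at least 10, where *AXL* was not tested, and 1 with the *RN18S1* share as a covariate (*DOCK5*). It had 3 calls with DESeq2, edgeR, a pseudocount of 0.1, scaling to equal totals and sample quality weights. With an embryo left out it had 2 to 5 (5 without ko4, with *CYR61*, *CRIM1* and *CCDC80* added). The kinase cascade had 0 calls and 0 to 1 with an embryo left out (*TNIK* without nc3). The calls of the partners (1) and negative regulators (0) did not change. The cause of these moves was otherwise not tested.

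Over all genes, 1792 were called higher and 232 lower in the main test, 629 and 447 after quantile normalization, 3229 and 286 with sample quality weights, 1002 and 183 with a pseudocount of 5, 502 and 190 with a mean of at least 10, and 137 and 83 with the *RN18S1* share as a covariate. With an embryo left out, the count called higher ran from 771 (without ko5) to 3057 (without ko4). The median log2 fold change of all genes was 0.25, and between -0.04 and 0.34 under the alternatives. *NF2* exceeded this median by 0.44 to 0.87 in every fit. No paired analysis was possible because replicate numbers of the labels are missing from the *SOX2* KO columns.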

Other observations

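The genes in this paragraph were chosen after their values were seen, and no explanation is attached to them. *CSNK1D*, a casein kinase that primes YAP for degradation, was 255, 239, 252, 254 and 238 in WT and 224, 227, 205, 228 and 223 in *SOX2* KO embryos, so that the groups did not overlap although the log2 fold change was only -0.16 (SE 0.14, limma adjusted p = 0.433). Its SD was 0.05 and 0.06 on the log2 scale, and limma draws the variance of each gene toward that of genes of like level. *SAV1*, the adaptor of the MST kinases, had means of 29.3 ± 10.6 for WT and 16.5 ± 6.57 for *SOX2* KO (SD, n = 5 each), with a log2 fold change of -0.82 (95% interval -1.58 to -0.07, adjusted p = 0.124). *WWC2*, the relative of KIBRA that is not X-linked, was 229 ± 39.2 for WT and 170.3 ± 20.9 for *SOX2* KO (-0.41, adjusted p = 0.0953), while *WWC1* rose. *PATJ*, a scaffold of the Crumbs complex, was 246 ± 26.9 for WT and 335 ± 62.2 for *SOX2* KO (0.43, adjusted p = 0.0694).

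The log2 ratio of *CYR61* to *CTGF* was -0.77 ± 0.80 in WT and 0.76 ± 0.84 in *SOX2* KO embryos, and 3 *SOX2* KO embryos lay above all WT embryos. The log2 ratio of *TEAD4* to *TEAD1* was -0.75 ± 0.33 and -0.41 ± 0.21, also with 3 *SOX2* KO embryos above all WT embryos. These ratios were not tested.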
